A study of Mus musculus with 16 samples.

Results

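The presynaptic release machinery was followed through 47 genes of synaptic vesicles, active zones and SNARE complexes, chosen by name from the 21474 protein-coding genes of the annotation. For each gene, the m6A peaks on the same strand as its exons (GENCODE M39, mouse genome GRCm39) were taken from 8 peak lists of mouse cortex after sham surgery or after ischemia and reperfusion. A peak was listed for 38 of the 47 genes in at least 1 list, against 11222 of the 21474 protein-coding genes. The 38 genes held 695 of the 169564 listed peaks, which were joined into 205 of 52776 regions.

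Adult male C57BL/6J mice of 6 to 8 weeks were used. In the MCAO/R groups a nylon filament pushed into the right internal carotid artery closed the middle cerebral artery for 2 h, after which blood flow was restored for 0 h (MCAO/R-0 h), 6 h (MCAO/R-6 h) or 24 h (MCAO/R-24 h), and Sham mice had the surgery without the filament. RNA of cerebral cortical peri-infarct tissue was fragmented, fragments carrying m6A were pulled down with an antibody (IP), and peaks were called against the RNA that entered the pull-down (input). Each group had 2 IP libraries with 1 peak list each, and the 8 input libraries were not analysed here. The methods give 6 mice per group and 2 replicates of sequencing and do not say whether each library came from separate animals, so p-values measure only the spread between these libraries, which may be technical. The reperfusion groups are named 0 h, 6 h and 24 h from here on. All groups were of the same strain, and Sham is the common control of the 3 reperfusion times. In bulk tissue, fewer cells of a type and less RNA per cell cannot be told apart.

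At a presynaptic terminal, vesicles filled by neurotransmitter transporters are docked at the active zone by large scaffold proteins, primed for fusion by Munc13 proteins and RIMs, and fused with the membrane by SNARE proteins under the control of complexins and the calcium sensors of the synaptotagmin family. The vesicle membrane is then retrieved by endocytosis. N6-methyladenosine (m6A) is a modification of messenger RNA that is read by binding proteins, is known for its influence on RNA stability and translation, and is found mostly near stop codons, in 3′ UTRs and in long exons.

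A list gives for each peak its span, strand and a score whose scale is not defined in the sources used here, so only the rank of a peak within its list is used: the percentage of the peaks of that list with a lower score. A rank of 99 thus means that 99% of the peaks of the list scored lower. Lists held 18775 to 24078 peaks without read counts, so sequencing depth is unknown and a gene without a peak may have had too few reads for one. Regions, which are sets of peaks of any list that share an exonic base on the same strand, are numbered from the 5′ end of each gene, and the core of a region is the stretch covered by the largest number of lists. Among cell type markers, the neuronal genes Rbfox3, Map2, Tubb3 and Nefl each had a peak in some but not all lists (0 to 3 of the 4 per list), the astrocyte gene Aqp4 and the microglial genes Cx3cr1 and P2ry12 had one in all 8 lists, and none of the 4 markers of infiltrating leukocytes (S100a8, S100a9, Ptprc, Ccr2) had one in any list. A list of peaks does not measure expression, so a marker without a peak may still be expressed.

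Peaks were listed on 30 and 24 of the presynaptic genes in Sham, on 26 and 26 at 0 h, on 28 and 28 at 6 h and on 22 and 24 at 24 h. The mean was 26 ± 2.62 genes (SD, n = 8 lists), and the 2 Sham lists differed more from each other than the group means did. Peaks on these genes numbered 99 and 83 in Sham, 79 and 84 at 0 h, 100 and 101 at 6 h and 69 and 80 at 24 h. The fewest genes were marked at 24 h, 26 in either list, against 34 in either Sham list.

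The set divided into 14 genes with a peak in all 8 lists, 24 with a peak in 1 to 7 lists and 9 with none. The 14 were Pclo, Bsn, Rims2, Erc1, Erc2, Unc13b, Unc13c, Stxbp5, Cplx2, Syt2, Syt6, Syt10, Syt12 and Syt13. The 9 without a peak were Syn1, Syn2, Syt1, Syt5, Snap25, Stx1a, Vamp2, Cplx1 and Slc17a7, which include the SNARE proteins Snap25, Stx1a and Vamp2 and the calcium sensor Syt1 of fast release. Of all protein-coding genes, 18.7% had a peak in all 8 lists and 47.7% had none, against 29.8% and 19.1% of the 47. Of 56 further presynaptic genes, 12 had a peak in all 8 lists and 24 had none, so the contrast does not extend to presynaptic genes in general. The 47 were chosen with earlier results of these data known. The shares were not matched for transcript length, by which they are given further below, or for expression, which was not measured. By role, 5 of 12 active zone scaffolds, 2 of 3 priming factors, 5 of 13 synaptotagmins and 2 of 8 SNARE proteins and their regulators had a peak in all 8 lists, and none of the 3 synapsins, 6 vesicle glycoproteins and transporters or 2 endocytosis genes did.

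**Figure D1:**
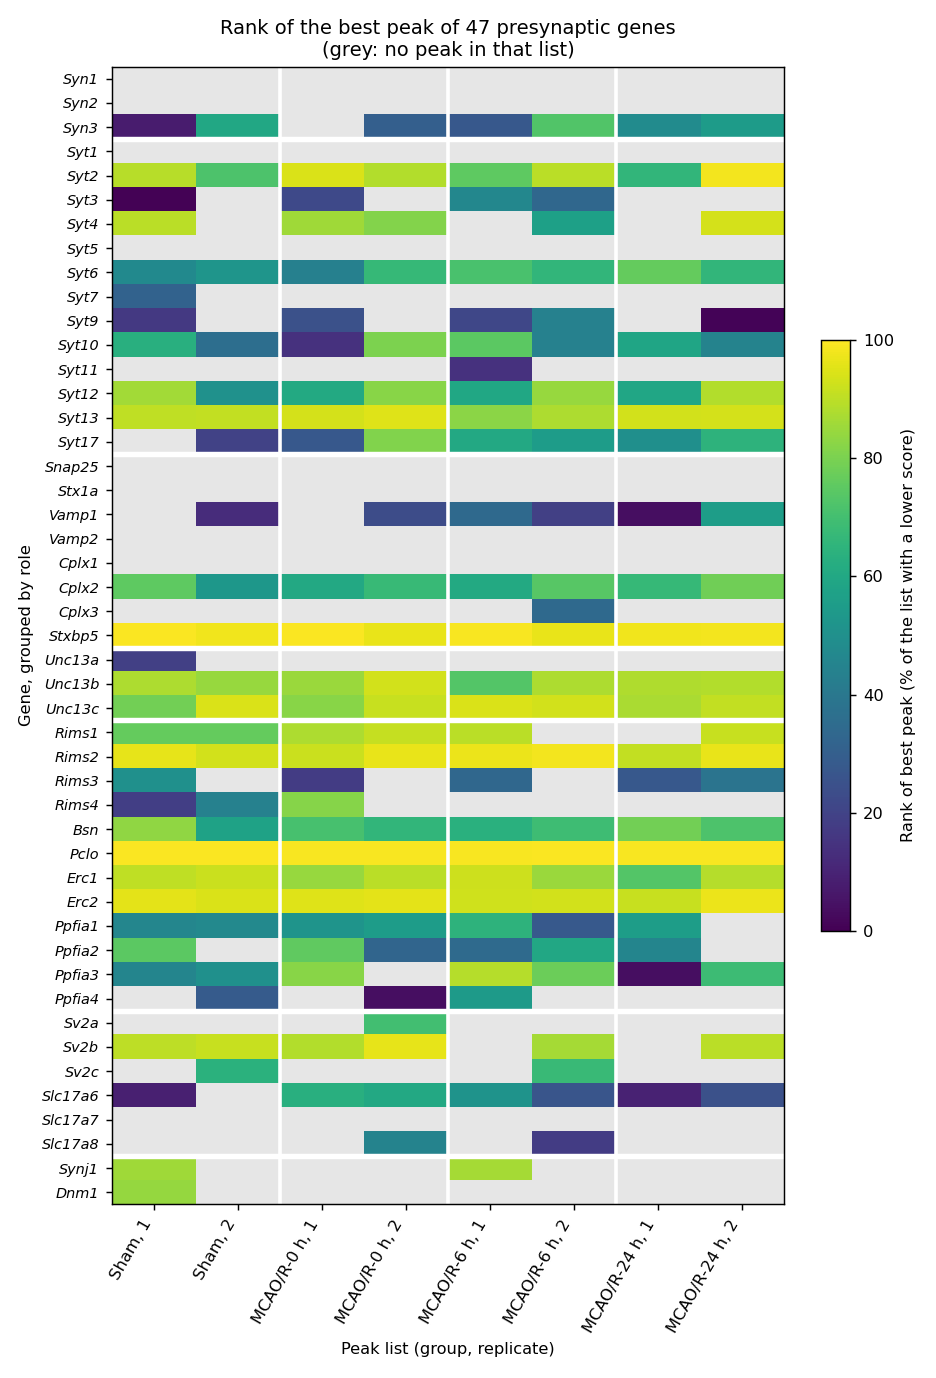
Rank of the best peak of each of the 47 genes (rows, grouped by role from synapsins at the top to endocytosis at the bottom) in each of the 8 peak lists (columns, group and replicate), from 0 to 100% of the list with a lower score; grey fields have no peak. Pclo and Stxbp5 stay at the top of the scale in all 8 lists, 9 rows are grey throughout, and Rims4 is marked only in both Sham lists and the 0 h replicate 1 list.

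Among the active zone scaffolds, Pclo, which encodes the very large scaffold Piccolo, carried the most peaks, 102 in 24 regions. Its best peak ranked 99.3 and 99.5 in Sham, 99.05 and 99.0 at 0 h, 99.2 and 99.3 at 6 h and 99.2 and 98.9 at 24 h. The gene was thus among the highest scores of every list, and its best rank did not separate the groups. Its number of peaks was 18 and 14 in Sham, 11 and 15 at 0 h, 13 and 12 at 6 h and 7 and 12 at 24 h. Both counts at 6 h and at 24 h were below both Sham counts, with the lowest in 24 h replicate 1, while the counts at 0 h overlapped with Sham.

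Region 24 of Pclo lay in the 3′ UTR with its centre 94 nt after the start of the stop codon and ranked between 98.5 and 99.5 in all 8 lists. The others of its 5 regions in all lists lay in coding exons. Region 5, in exon 5 of 25, which is 5059 nt long, ranked 98.75 and 98.5 in Sham, 93.9 and 98.7 at 0 h, 99.2 and 99.1 at 6 h and 98.5 and 98.9 at 24 h. Both 6 h values were above both Sham values, by less than 1 rank unit. Region 12, in the same exon, ranked 92.0 and 90.3 in Sham, 73.8 and 83.5 at 0 h, 93.5 and 89.2 at 6 h and 80.8 and 78.2 at 24 h, so that the 0 h and 24 h values lay below Sham and the 6 h values around it. Region 3, in exon 2, ranked 95.8 and 93.2 in Sham, 90.8 and 92.8 at 0 h, 95.8 and 93.05 at 6 h and 87.2 and 90.6 at 24 h, again with the 0 h and 24 h values below Sham and the 6 h values around it.

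Region 20 of Pclo, in exon 7, ranked 96.1 and 95.5 in Sham, 96.1 and 95.8 at 0 h, 94.6 and 94.75 at 6 h and 92.8 and 93.2 at 24 h. All 6 h and 24 h values were below all Sham and 0 h values. The difference among the 4 groups had p = 0.019 (exact permutation over every division of the 8 lists into 4 pairs, one-sided), and 0.683 after Benjamini-Hochberg adjustment over the 4735 regions found in all 8 lists. On the log2 scale of score over list median, p was 0.0571.

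Regions 6, 9 and 16 of Pclo, all coding, were lost at some time, which here means listed in both Sham lists and in neither list of that time. Region 6, in exon 5, ranked 93.0 and 91.8 in Sham, 70.8 and 81.8 at 0 h and 87.6 in 6 h replicate 1, and was absent from 6 h replicate 2 and from both 24 h lists. Region 16, in exon 6, ranked 80.7 and 76.95 in Sham, 81.5 in 0 h replicate 2 and 74.8 in 6 h replicate 2, and was lost at 24 h. Region 9 ranked 89.0 and 77.1 in Sham and was absent from both 0 h lists, but returned at 83.0 and 86.0 at 6 h and at 84.5 in 24 h replicate 2. The lost regions ranked high in Sham, and regions 5 and 12, in the same exon as regions 6 and 9, stayed in all lists.

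The sequences below show the recurrent coding regions 5 and 20 and the lost coding regions 6 and 16 of Pclo side by side. They are on the plus strand of chromosome 5 in GRCm39, with matches to RRACH in capitals. RRACH is the short sequence in which most m6A is found, where R is A or G and H is A, C or T. The sequences are the longest unbroken block of the core of region 5 (chr5:14724969-14725014), the core of region 20 (chr5:14763844-14764018), the core of region 6 (chr5:14725965-14725989) and the core of region 16 (chr5:14730690-14730764), followed by 25 bases around the most central RRACH of the 3′ UTR region 24 (chr5:14908951-14908975).
Pclo region 5, all 8 lists: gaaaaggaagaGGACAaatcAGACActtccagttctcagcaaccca
Pclo region 20, all 8 lists: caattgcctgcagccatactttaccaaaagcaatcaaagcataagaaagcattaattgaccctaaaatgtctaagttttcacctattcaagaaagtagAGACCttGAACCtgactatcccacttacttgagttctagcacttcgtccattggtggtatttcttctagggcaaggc
Pclo region 6, lost at 24 h: aacagtacagtaacagataagtact
Pclo region 16, lost at 24 h: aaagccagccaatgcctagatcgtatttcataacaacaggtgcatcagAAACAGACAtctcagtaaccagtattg
Pclo region 24, all 8 lists: gactgtagttGAACActactgtggt
Regions 5, 16 and 20 held 2 RRACH each and region 6, which is only 25 nt, held none. Among regions of any gene in all 8 lists, 37.7% of the cores of 25 nt held RRACH. Of those of 175 nt, the length of region 20, 98.8% did. Region 6 was not in all 8 lists, so the share for 25 nt is not drawn from regions like it.

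Bsn, which encodes Bassoon, the other very large scaffold, had 19 peaks in 8 regions, far fewer than Pclo although its longest coding exon, of 6642 nt, is longer than that of Pclo. Its best peak ranked 83.4 and 57.6 in Sham, 71.0 and 65.8 at 0 h, 63.3 and 68.8 at 6 h and 78.9 and 71.9 at 24 h. Its only region in all 8 lists, region 8 in the 3′ UTR, ranged from 18.7 to 83.4, and the groups overlapped.

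The RIM family links vesicles to the calcium channels of the active zone. Rims2 was marked in all lists, with 57 peaks in 11 regions and a best rank of 96.25 and 93.1 in Sham, 91.8 and 96.5 at 0 h, 97.1 and 98.3 at 6 h and 90.6 and 96.8 at 24 h. Its 4 regions in all lists were 2 coding regions in exons 7 and 22 of 31, region 9 at the stop codon and region 10 in the 3′ UTR, 609 nt after it. Region 2 ranked 91.2 and 89.1 in Sham and 91.8 and 96.5 at 0 h, both higher, and 81.6 to 98.3 later. Region 7 ranked 89.2 and 90.3 in Sham and 64.8 and 87.9 at 24 h, both lower, and region 10 ranked 96.25 and 92.7 in Sham and 90.6 and 92.25 at 24 h, also lower, by less than 1 rank unit between the nearest values. No region of Rims2 was gained or lost.

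Rims1 was listed in 6 of 8 lists. Region 4, in the last exon with its centre at -177 nt from the stop codon, was absent from both Sham lists and ranked 87.9 and 91.05 at 0 h, 89.8 in 6 h replicate 1 and 91.5 in 24 h replicate 2. It was gained at 0 h, which here means listed in both lists of that time and neither Sham list. The Sham peaks of Rims1 lay elsewhere: in coding sequence at -2040 nt in replicate 1 (rank 76.5) and at -3656 nt in replicate 2 (76.2), and in the 5′ UTR of another transcript in replicate 1 (11.7). At the later times the region was in 1 list of 2.

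Rims3 ranked 50.3 in Sham replicate 1, 17.9 in 0 h replicate 1, 33.2 in 6 h replicate 1 and 27.5 and 38.5 at 24 h. Its 3′ UTR region 1 was gained at 24 h, at ranks of 23.55 and 38.5, and was also in 0 h replicate 1 at 17.9. Rims4 ranked 18.5 and 44.1 in the Sham lists and 81.7 in 0 h replicate 1 and had no peak in any later list or in 0 h replicate 2. No single region of Rims4 was in both Sham lists. Counted by gene, a peak in both Sham lists and in neither list of the time, Rims4 was the only presynaptic gene lost at 6 h (1 of 37, against 1.66% of all protein-coding genes with a peak in these lists) and at 24 h (1 of 34, against 2.47%). None of 36 was lost at 0 h, against 1.57%, and none was gained, against 4.21% at 0 h, 5.4% at 6 h and 4.52% at 24 h. This count by gene was added after the values were seen.

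The ELKS scaffolds Erc1 and Erc2 were marked in every list. Erc1 had 66 peaks in 16 regions and a best rank of 90.6 and 91.8 in Sham, 84.45 and 89.5 at 0 h, 92.3 and 84.9 at 6 h and 73.3 and 88.9 at 24 h. Its coding region 1 ranked 83.0 and 82.1 in Sham and higher in both 6 h lists, 92.3 and 84.9, with 52.8 and 89.5 at 0 h and 71.5 and 84.6 at 24 h. Region 14, in the 3′ UTR 869 nt after the stop codon, was in neither Sham list nor either 0 h list and ranked 38.1 and 32.9 at 6 h and 26.2 and 23.8 at 24 h. It was therefore gained at 6 h and at 24 h, at ranks no higher than 38.1. Erc2 ranked 96.0 and 94.2 in Sham, 95.0 and 96.05 at 0 h, 92.8 and 93.2 at 6 h and 91.7 and 97.1 at 24 h. All of these values came from 3′ UTR region 4, 236 nt after the stop codon, with both 6 h values below both Sham values.

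The liprin-α genes Ppfia1 to Ppfia4 organise active zones, and none of them had a region in all 8 lists. Ppfia1 ranked 45.9 and 46.9 in Sham, 51.8 and 55.1 at 0 h, 64.5 and 27.8 at 6 h and 55.5 in 24 h replicate 1. Its coding region 6 ranked 45.9 and 27.0 in Sham and was lost at all 3 times, and its region 3 in exon 9 of 32 was gained at 0 h with ranks of 51.8 and 55.1. Ppfia3 ranked 45.6 and 50.35 in Sham, 82.2 in 0 h replicate 1, 88.7 and 77.5 at 6 h and 3.55 and 68.4 at 24 h. Its region 1 in exon 2 held the best peak of both Sham lists and was lost at all 3 times. Region 2 in exon 16 was gained at 6 h at 88.7 and 77.5, and the 3′ UTR regions 4 and 5 were gained at 24 h (3.55 and 26.3) and at 6 h (7.78 and 47.4). In Ppfia1 and Ppfia3 the peaks of the Sham lists and those of the reperfusion lists thus lay partly on different exons. Ppfia2 ranked 74.8 in Sham replicate 1, 75.6 and 32.7 at 0 h, 34.4 and 60.1 at 6 h and 45.6 in 24 h replicate 1. Ppfia4 ranked 28.8 in Sham replicate 2, 3.58 in 0 h replicate 2 and 54.4 in 6 h replicate 1.

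The gained scaffold regions with the highest ranks, Rims1 region 4 and Ppfia3 region 2, are shown here on the minus strand, read 5′ to 3′, with RRACH in capitals, beside the coding region 2 of Rims2, which stayed in all lists (chr15:39300494-39300543, plus strand). The gained region 4 of Rims1 lies at chr1:22358775-22358824 and the longest unbroken block of the gained region 2 of Ppfia3 at chr7:44999493-44999590.
Rims2 region 2, all 8 lists: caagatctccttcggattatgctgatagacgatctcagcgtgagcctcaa
Rims1 region 4, gained at 0 h: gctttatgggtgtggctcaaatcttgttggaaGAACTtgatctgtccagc
Ppfia3 region 2, gained at 6 h: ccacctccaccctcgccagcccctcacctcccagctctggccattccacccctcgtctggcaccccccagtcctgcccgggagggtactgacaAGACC
The high-ranking region of Rims2 held no RRACH in its core of 50 nt, and the gained region of Rims1 held 1. Among regions of any gene in all 8 lists, which include that of Rims2 but not that of Rims1, 64.2% of the cores of 50 nt held RRACH.

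The Munc13 proteins prime vesicles for fusion. Unc13a, the main isoform of cortical excitatory synapses, had a peak in Sham replicate 1 only, at rank 19.1, although its transcript is 10963 nt long. Unc13c had 74 peaks in 13 regions and a best rank of 78.9 and 94.2 in Sham, 82.3 and 91.7 at 0 h, 94.2 and 93.3 at 6 h and 87.4 and 91.0 at 24 h. Its regions in all 8 lists, 4 and 5, lay in exon 2 of 33, which is 3213 nt long.

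Region 4 of Unc13c ranked 78.7 and 87.95 in Sham, 81.5 and 85.2 at 0 h, 62.3 and 57.9 at 6 h and 51.7 and 55.6 at 24 h. The 4 values of the later times were below the 4 values of Sham and 0 h. The difference among the groups had p = 0.0476 (exact permutation, one-sided), and 0.707 after Benjamini-Hochberg adjustment. Without 6 h replicate 1 or without 24 h replicate 1 p was 0.0667, and with equal numbers of peaks per list it was 0.0762. The neighbouring region 5, in the same exon, ranked 78.35 to 94.2 with overlapping groups. Coding region 9, in exon 16, ranked 26.6 and 19.9 in Sham and 50.1 in 0 h replicate 1 and was lost at 6 h and 24 h.

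Unc13b had 54 peaks in 13 regions and a best rank of 87.5 and 84.65 in Sham, 85.1 and 93.3 at 0 h, 73.2 and 87.8 at 6 h and 88.2 and 88.6 at 24 h. Its regions 8 and 9, both in all 8 lists, are coding in another transcript than the one with the longest coding sequence. Region 8 ranked 87.5 and 84.65 in Sham and 88.2 and 88.6 at 24 h, both higher, while region 9 ranged from 37.9 to 85.1 with overlapping groups. Region 12, in the last exon at -282 nt from the stop codon, ranked 3.18 and 9.56 in Sham, was lost at 0 h and was listed again at 30.8 and 13.96 at 6 h and 25.4 in 24 h replicate 1.

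The exon 2 regions of Unc13c differ in how their ranks moved and are shown on the minus strand of chromosome 9, with RRACH in capitals: the longest unbroken block of the core of region 4, which 7 lists covered (chr9:73839794-73839868), and the core of region 5 (chr9:73838069-73838293).
Unc13c region 4: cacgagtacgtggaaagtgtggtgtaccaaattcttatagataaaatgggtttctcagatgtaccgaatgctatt
Unc13c region 5: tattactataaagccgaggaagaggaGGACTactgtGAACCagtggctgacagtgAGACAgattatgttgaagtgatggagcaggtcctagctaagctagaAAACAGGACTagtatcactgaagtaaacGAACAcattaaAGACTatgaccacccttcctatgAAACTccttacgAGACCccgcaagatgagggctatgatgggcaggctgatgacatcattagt
Region 5 held 9 RRACH, 2 of them GGACT. Region 4 held 1, a GGACT, in the smaller block of its core of 100 nt, which is not printed.

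Of the SNARE proteins and their regulators, Stxbp5 (tomosyn, which competes for SNARE binding) ranked 99.5 and 97.9 in Sham, 99.2 and 96.7 at 0 h, 98.9 and 96.9 at 6 h and 97.8 and 98.1 at 24 h. The groups overlapped, and all of these values came from 3′ UTR region 9, 231 nt after the stop codon. Coding region 3 of Stxbp5 ranked 66.4 and 77.75 in Sham, 37.6 in 0 h replicate 1 and 51.9 in 6 h replicate 1 and was lost at 24 h. Coding region 5 was listed only at 0 h, at 38.8 and 62.6, and was gained there.

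Cplx2, a complexin, ranked 75.4 and 53.1 in Sham, 60.4 and 67.2 at 0 h, 60.55 and 73.9 at 6 h and 67.0 and 78.1 at 24 h, from 2 regions in the 3′ UTR with centres 70 and 445 nt after the stop codon. Its groups overlapped. Cplx3 had peaks in 6 h replicate 2 only, at 34.3, and Cplx1 had none. Vamp1, a vesicle SNARE, ranked 12.9 in Sham replicate 2, 23.2 in 0 h replicate 2, 34.1 and 18.9 at 6 h and 3.81 and 55.8 at 24 h. Its region 1, coding in another transcript than the one with the longest coding sequence, was gained at 6 h (2.08 and 18.9) and at 24 h (3.81 and 1.95), near the bottom of these lists. All 10 Vamp1 peaks had their centre off the transcript with the longest coding sequence. That transcript ends at chr6:125199260, and the 2 Vamp1 regions start beyond it, at 125217298 and 125217486.

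The 3′ UTR sites of the high-ranking Stxbp5 and Syt13 regions and of Cplx2 are given as 25 bases each, around the RRACH in capitals for Stxbp5 (chr10:9636533-9636557, minus strand) and from cores without RRACH for Syt13 (the middle of 1 of the 2 blocks of its core, chr2:92784305-92784329, plus strand) and Cplx2 (the whole core, chr13:54527928-54527952, plus strand).
Stxbp5 region 9: actttgctgaGAACTtctttcccag
Syt13 region 1: ttgagctgaagcagtggttcttaac
Cplx2 region 2: agaaggagaagaagaagaagaagaa
The core of Syt13 held no RRACH in 100 nt, and 90.5% of all cores of that length held at least 1.

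Among the synaptotagmins, the calcium sensors of exocytosis and their relatives, Syt13 had 1 region, in the 3′ UTR 270 nt after the stop codon. It ranked 90.3 and 90.9 in Sham, 93.6 and 95.3 at 0 h, 82.6 and 87.6 at 6 h and 93.1 and 93.5 at 24 h. Both lists of 0 h and of 24 h were above both Sham lists, and both lists of 6 h were below them. The difference among the 4 groups had p = 0.00952, the smallest that the exact permutation test can give, and 0.673 after Benjamini-Hochberg adjustment. It was 0.0762 without 0 h replicate 2 and 0.0667 without either of the 24 h lists.

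Syt2, a fast calcium sensor, ranked 89.2 and 72.1 in Sham, 94.5 and 88.3 at 0 h, 75.1 and 89.6 at 6 h and 65.8 and 98.2 at 24 h, with its lowest and its highest value in the 2 lists of 24 h. Syt12 ranked 86.2 and 50.6 in Sham, 60.7 and 82.2 at 0 h, 59.45 and 84.6 at 6 h and 59.2 and 88.5 at 24 h. Its 3′ UTR region 4 ranked 34.8 and 44.2 in Sham and higher in all 6 reperfusion lists, from 59.2 to 71.5, with p = 0.124 among the groups (exact permutation). Syt6 ranked 47.5 and 52.0 in Sham, 43.7 and 66.9 at 0 h, 71.4 and 65.9 at 6 h and 76.5 and 65.9 at 24 h, and its region 3, in the 3′ UTR of another transcript, was higher than Sham in both lists of 6 h and of 24 h (p = 0.248, exact permutation). Syt10 ranked from 14.3 to 80.2, and none of its 5 regions was in all lists.

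The other marked synaptotagmins were in some of the lists. Syt17 ranked 19.85 in Sham replicate 2 only, 27.5 and 81.0 at 0 h, 60.2 and 55.3 at 6 h and 49.8 and 64.7 at 24 h. Its coding region 1 was absent from both Sham lists and ranked 27.5 and 81.0 at 0 h, 60.2 and 35.3 at 6 h and 26.5 in 24 h replicate 1, a gain at 0 h and 6 h. Its coding region 2 ranked 29.3 and 55.3 at 6 h and 49.8 and 60.5 at 24 h and was in no earlier list, a gain at 6 h and 24 h. Syt17 thus had a gained region at each of the 3 times. Region 1 of Syt17, on the minus strand at chr7:118033408-118033482, is shown as the core of a gained region without RRACH, which 78.6% of all cores of 75 nt held.
Syt17 region 1: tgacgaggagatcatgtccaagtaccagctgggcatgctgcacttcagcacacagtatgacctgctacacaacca

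Syt4, an immediate early gene product of vesicles, ranked 89.7 in Sham replicate 1, 85.9 and 81.4 at 0 h, 56.95 in 6 h replicate 2 and 93.45 in 24 h replicate 2. Syt9 ranked 16.4 in Sham replicate 1, 24.6 in 0 h replicate 1, 21.1 and 43.8 at 6 h and 0.818 in 24 h replicate 2, and its 3′ UTR region 6 was gained at 6 h at 17.2 and 11.8. Syt3 ranked 0.719 in Sham replicate 1, 22.25 in 0 h replicate 1 and 46.1 and 33.3 at 6 h. These genes moved in and out of the lists within groups as well as between them. Syt7 was listed in Sham replicate 1 at 31.25 and Syt11 in 6 h replicate 1 at 14.4.

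Of the synapsins, which tether vesicles in the reserve pool, Syn3 had peaks in 7 lists, at 7.56 and 59.9 in Sham, 30.2 in 0 h replicate 2, 27.6 and 72.9 at 6 h and 48.3 and 55.0 at 24 h. Syn1 and Syn2, the abundant synapsins of the forebrain, had none. The vesicle glycoprotein gene Sv2b ranked 90.1 and 91.5 in Sham, 88.55 and 96.2 at 0 h, 86.6 in 6 h replicate 2 and 89.6 in 24 h replicate 2. Its coding region 2, at -159 nt from the stop codon, ranked from 86.6 to 91.5 in these 6 lists, so that a peak in the upper part of 6 lists was missing from the lists of 6 h replicate 1 and 24 h replicate 1. Sv2c ranked 63.8 in Sham replicate 2 and 67.8 in 6 h replicate 2, and Sv2a 69.7 in 0 h replicate 2.

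The vesicular glutamate transporter gene Slc17a6 ranked 8.905 in Sham replicate 1, 63.0 and 60.4 at 0 h, 51.4 and 26.5 at 6 h and 9.55 and 24.6 at 24 h, from 8 regions of which 7 were in 1 list. Slc17a8 ranked 44.5 in 0 h replicate 2 and 17.7 in 6 h replicate 2, and Slc17a7, the main transporter of cortical glutamatergic terminals, had no peak. Of the endocytosis genes, Synj1, a lipid phosphatase that uncoats vesicles, ranked 85.7 in Sham replicate 1 and 86.35 in 6 h replicate 1, and Dnm1, the GTPase that cuts them from the membrane, 84.2 in Sham replicate 1. Both genes thus ranked high where they were listed, in 2 lists and 1 list.

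Among the 205 regions, 51.7% were in 1 list and 11.2% (23 regions of 13 genes) in all 8, against 52.6% and 8.97% of all 52776 regions. Of the 23 regions, 3 had an unadjusted p at or under 0.05 among the 4 groups (Syt13 region 1, Pclo region 20 and Unc13c region 4), against 6.67% (316) of the 4735 regions in all lists. After Benjamini-Hochberg adjustment over the 4735 no region passed 0.05, and the smallest adjusted p of all was 0.673 (exact permutation). Against Sham, both ranks were higher without overlap for 3 of the 23 regions at 0 h (22.7% of all regions in all 8 lists), 4 at 6 h (26.2%) and 4 at 24 h (25% of all). Both were lower for 2 regions at 0 h (11%), 4 at 6 h (13.6%) and 6 at 24 h (13.3%). As shares of the 23, the higher regions were 13.0%, 17.4% and 17.4% and the lower regions 8.70%, 17.4% and 26.1%, where 1 region more or less changes a share by over 4 points. The 6 at 24 h were Pclo regions 3, 12 and 20, Rims2 regions 7 and 10 and Unc13c region 4. A comparison of 2 lists with 2 cannot reach p = 0.05 (the smallest is 0.333, exact permutation), so these counts have no test, and the 3 comparisons share their Sham lists.

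**Figure D2:**
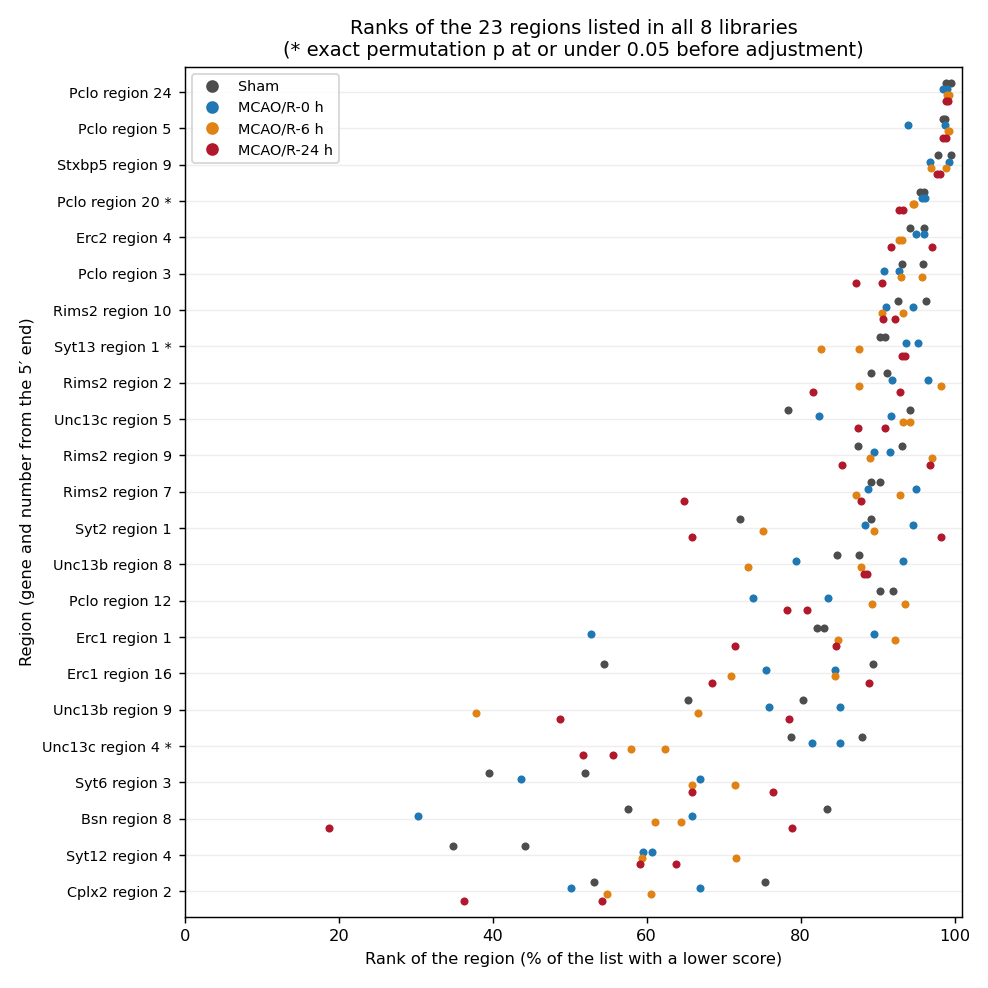
Rank (x axis, percentage of the peaks of the list with a lower score) of each of the 23 presynaptic regions found in all 8 lists, ordered by median rank; each dot is 1 list, coloured by group, and an asterisk marks an exact permutation p at or under 0.05 among the 4 groups before adjustment. In Unc13c region 4 the 6 h and 24 h lists (51.7 to 62.3) lie apart from Sham and 0 h (78.7 to 87.95), while in Pclo region 24 all lists lie between 98.5 and 99.5.

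In all, 12 regions of 9 genes were gained at some time and 8 regions of 6 genes were lost. By time, 4 of 143 presynaptic regions listed in Sham or 0 h were gained at 0 h (3.84% of all such regions), 7 of 167 at 6 h (4.94%) and 5 of 137 at 24 h (3.79%). Lost were 4 at 0 h (1.87% of all), 3 at 6 h (2.03%) and 6 at 24 h (2.76%). As shares of the presynaptic regions these were gains of 2.80%, 4.19% and 3.65% and losses of 2.80%, 1.80% and 4.38%. Each share rests on 3 to 7 regions, the comparisons share their Sham lists, and no test was run. No difference from the background is therefore read from these shares. Gained regions belonged to Ppfia1, Rims1, Stxbp5 and Syt17 at 0 h, to Erc1, Ppfia3, Syt17, Syt9 and Vamp1 at 6 h and to Erc1, Ppfia3, Rims3, Syt17 and Vamp1 at 24 h. Lost regions belonged to Pclo, Ppfia1, Ppfia3 and Unc13b at 0 h, to Ppfia1, Ppfia3 and Unc13c at 6 h and to Pclo, Ppfia1, Ppfia3, Stxbp5 and Unc13c at 24 h.

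All 8 lost regions lay in coding sequence, against 63.3% of all lost regions of protein-coding genes. Of the 12 gained regions 7 were coding and 5 lay in 3′ UTRs, against 56.9% and 34.9% of all gained regions. Gained regions differed widely in rank. Syt9 region 6, Vamp1 region 1, Rims3 region 1, Erc1 region 14 and Ppfia3 region 4 ranked no higher than 38.5 in any list, and the coding regions gained in Rims1 and Ppfia3 reached 91.5 and 88.7. When only the higher-scoring 50% of each list was kept, 3 of the 16 gains and 4 of the 13 losses, counted over the 3 times, were still called.

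Of the 695 peaks, 617 had their centre on the model transcript of the gene, the protein-coding one with most coding bases. The other 78 are left out of the shares by position and include 39 of Unc13b, 12 of Syt6, 10 of Vamp1 and 8 of Erc2. Regions 8 and 9 of Unc13b, in all 8 lists, have their centre off the model transcript. On the model transcripts 61.6% ± 6.44 of the peaks of a list lay in coding sequence, 35.2% ± 6.75 in 3′ UTRs and 3.23% ± 1.15 in 5′ UTRs (SD, n = 8 lists). Over all protein-coding genes the shares were 60.9% ± 1.45, 34.4% ± 1.38 and 4.76% ± 0.344. Within 200 nt of the stop codon lay 13.7% ± 3.34 of the presynaptic peaks and 20.3% ± 0.439 of all, lower in 7 of 8 lists. Internal coding exons of at least 400 nt held 33.8% ± 2.69 of the presynaptic peaks and 17.7% ± 0.41 of all, higher in 8 of 8 lists. Shorter internal coding exons were also higher in 8 of 8 lists, with 20.4% ± 3.35 against 16.4% ± 1.17, and last exons were lower in 8 of 8, with 41.7% ± 6.28 against 58.3% ± 1.54. Without Pclo, an alternative added after the values were seen, the long internal coding exons held 24.0% ± 3.20, the shorter ones 24.1% ± 3.98 and the last exons 48.1% ± 6.39, each on the same side of all genes in 8 of 8 lists. The long internal coding exons hold the coding regions in all 8 lists of Pclo, Unc13c and Erc1, and region 2 of Rims2. These shares were not tested. The median transcript of the 47 genes was 4936 nt, against 3010 nt over all protein-coding genes.

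**Figure D3:**
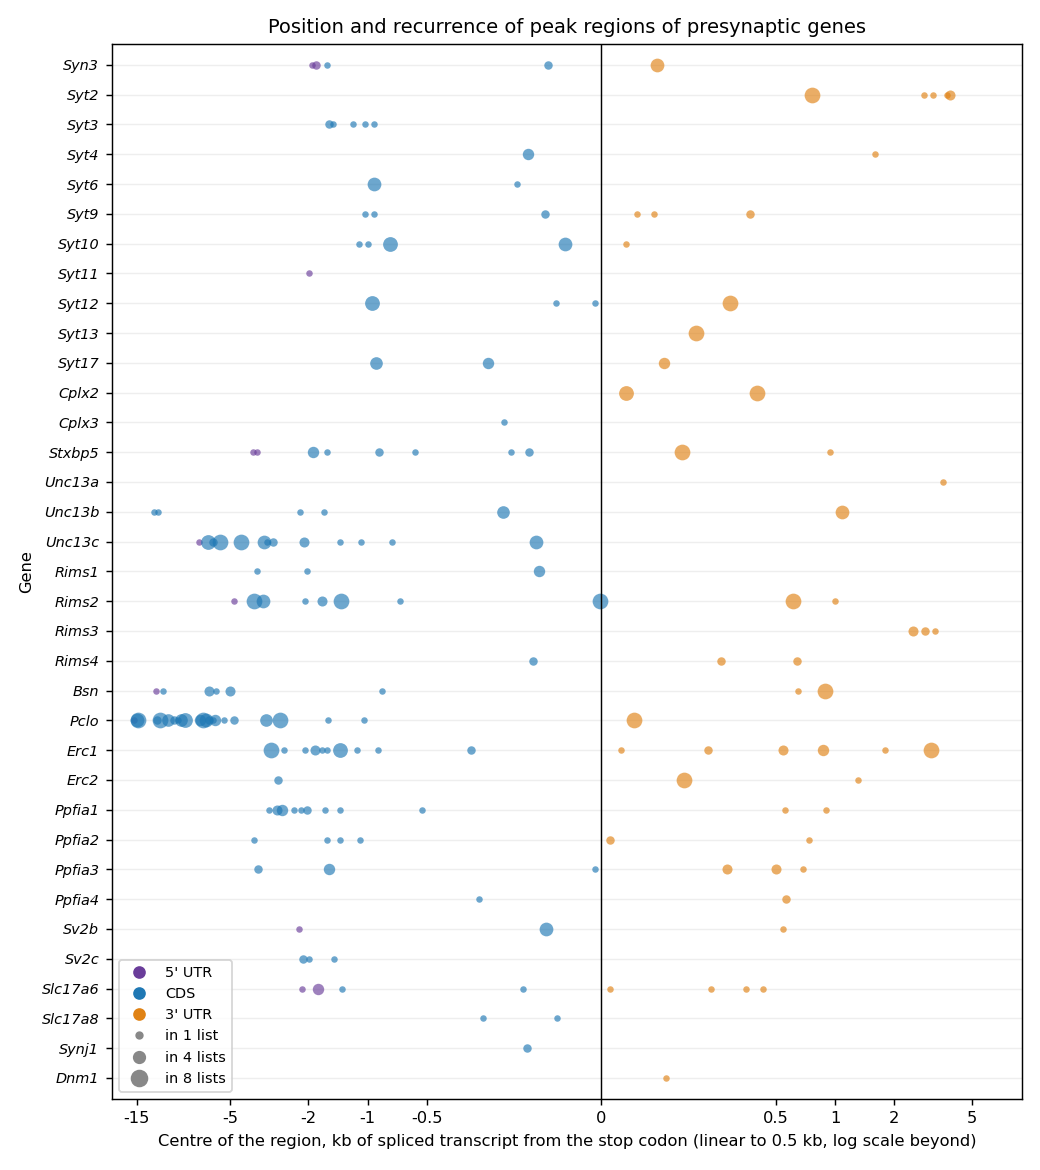
Centre of each region with a position on the transcript with the longest coding sequence (x axis, kb of spliced transcript from the start of the stop codon, linear to 0.5 kb on either side and logarithmic beyond), by gene; the area of a dot grows with the number of lists and its colour gives the part of the transcript. Pclo and Unc13c carry large dots far upstream of the stop codon, while Syt13, Stxbp5, Cplx2 and Erc2 carry theirs within 0.5 kb after it.

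The share of presynaptic peaks in coding sequence was 68.9% and 66.2% in Sham, 68.9% and 64% at 0 h, 58.1% and 58.4% at 6 h and 50.8% and 57.4% at 24 h. The 4 lists of the later times were all below the 4 lists of Sham and 0 h. Over all protein-coding genes the shares were 61.2% and 62.7%, 62.6% and 58.9%, 61.5% and 60.6%, and 60.4% and 59.0%, where both 24 h lists also lay below both Sham lists and the 6 h and 0 h lists overlapped with Sham. In numbers, coding peaks on the presynaptic genes were 62 and 49 in Sham, 51 and 48 at 0 h, 50 and 52 at 6 h and 31 and 39 at 24 h. The 3′ UTR peaks numbered 24 and 22, 21 and 25, 32 and 36, and 28 and 27, in the same order. At 6 h the shift thus lay in more 3′ UTR peaks, and at 24 h also in fewer coding peaks. Without Pclo the coding shares were 62.5% and 60.7% in Sham, 65.1% and 56.7% at 0 h, 52.05% and 53.2% at 6 h and 47.3% and 51.8% at 24 h, again with the 4 later lists lowest. Among the 33 genes that were not in all 8 lists, with 11 to 21 placed peaks per list, the shares were 64.7% and 73.3%, 71.4% and 61.1%, 42.9% and 61.9%, and 45.5% and 50.0%, and the 6 h lists overlapped with the 0 h lists. The share is a sum over genes of very different numbers of peaks, and no test was run on it.

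**Figure D4:**
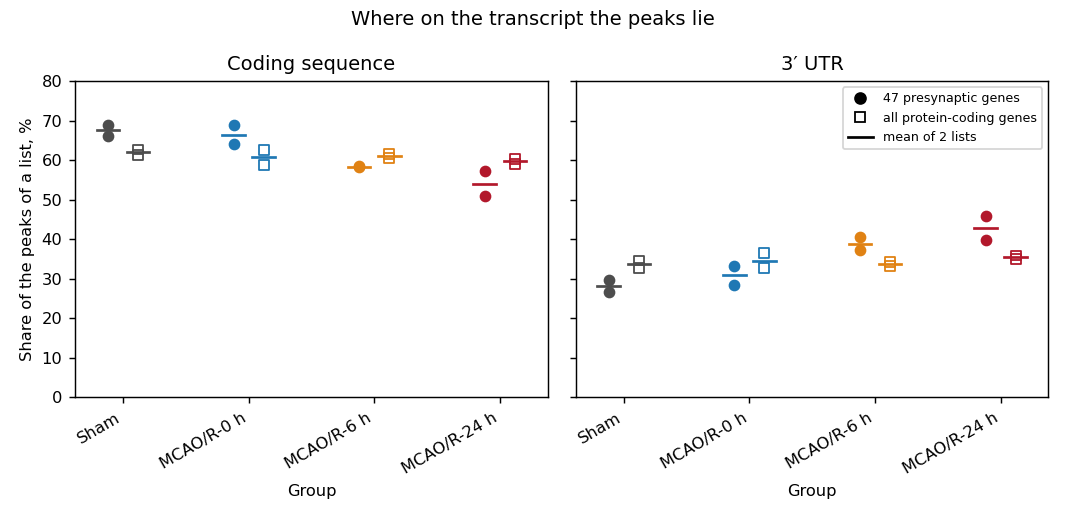
Share of the peaks of each list (y axis, %) in coding sequence (left) and in 3′ UTRs (right), by group, for the 47 presynaptic genes (filled circles) and all protein-coding genes (open squares), with the mean of 2 lists as a bar. The presynaptic coding share was 68.9% and 66.2% in Sham and 50.8% and 57.4% at 24 h, while the share over all genes lay between 58.9% and 62.7%.

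Marked and unmarked genes differed in length. The median transcript was 8307 nt for the 14 genes in all 8 lists, 4959 nt for the 24 genes in 1 to 7 lists and 3117 nt for the 9 genes without a peak. Across the 47 genes, Spearman's rho between transcript length and number of lists was 0.510, and across all 21474 protein-coding genes it was 0.495. Genes share the 8 lists and are not independent replicates, so these values are descriptions. Length did not order all genes: Syt10 (1954 nt) was in all 8 lists, while Unc13a (10963 nt), Sv2c (9101 nt) and Synj1 (7301 nt) were in 1, 2 and 2. Syt6 was also in all 8 lists, but its 1590 nt are those of a model without UTRs. Its region in all 8 lists lay in the 3′ UTR of another transcript. None of the 18 genes of at least 6000 nt was without a peak, against 18.0% of all protein-coding genes of that length. Of the 14 genes of 2000 to 4000 nt, 7 had none, against 46.9%.

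**Figure D5:**
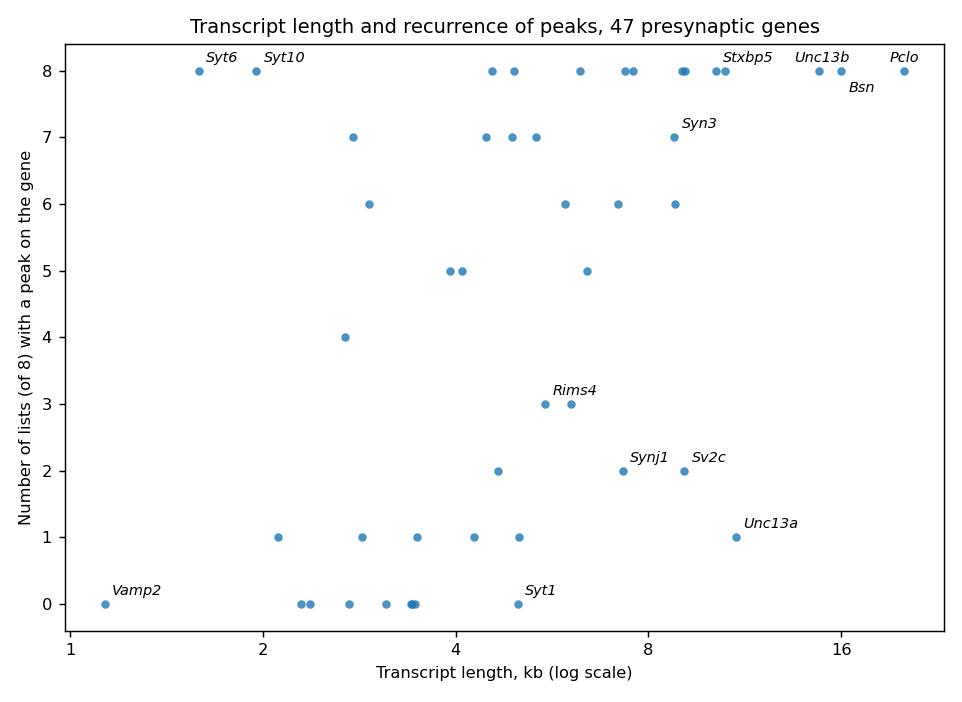
Length of the transcript with the longest coding sequence (x axis, kb, log scale) against the number of the 8 lists with a peak, for the 47 presynaptic genes, 1 dot per gene. Dots at 8 lists reach from Syt6 (1590 nt, a model without UTRs) to Pclo (20084 nt), and the dots at 0 lie between Vamp2 (1133 nt) and Syt1 (4998 nt).

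The exonic sequence of the presynaptic peaks held 19.3 ± 0.629 RRACH per kb, and that of all peaks 18.4 ± 0.168 (SD, n = 8 lists), counted on the transcript strand only. GGACT, which is 1 form of RRACH, was found 1.42 ± 0.174 times per kb in presynaptic and 1.48 ± 0.0367 times per kb in all peaks. Of the cores of the 23 regions in all 8 lists, 16 (69.6%) held RRACH and 3 (13.0%) held GGACT, in Unc13c regions 4 and 5 and Rims2 region 10. Of all 4735 such cores, 83.6% and 21.8% did, at a median length of 125 nt against 100 nt. A match describes the sequence and does not show which base is modified.

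Among 56 further genes of the presynaptic release and retrieval pathway, 12 had a peak in all 8 lists, 20 in 1 to 7 and 24 in none. The highest median ranks in all lists were those of Stxbp5l (98.4), Syt14 (96.9), Syt16 (93.0), Napa (84.5), Itsn2 (76.0) and Cacna1b (72.7). Stxbp5l, the second tomosyn gene, ranked 99.1 and 99.0 in Sham, 92.1 and 98.0 at 0 h, 99.05 and 98.2 at 6 h and 97.6 and 98.5 at 24 h, beside Stxbp5 at the top of the lists. Per list, 18 to 23 of the 56 were marked. Genes of the pathway differed by role: 5 of 18 genes of the SNARE and fusion machinery were in all lists and 6 in none, while 2 of 18 vesicle proteins were in all lists and 12 in none.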

How the data were processed

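The deposited peak lists, 1 for each of the 8 IP libraries, give a score per peak. Per the labels and the study's methods the authors trimmed reads with Trim Galore, aligned them to GRCm39 with HISAT2, used SAMtools to discard reads without a unique position, and exomePeak2 to call peaks (p of 0.05, log2 fold change of 0.5), with no version of exomePeak2 and no score scale given. Fragments were about 100 nt in the methods and 200 nt in the labels. Whether the library kit marks the strand is not given in the sources used here, and the strand of each peak was taken as deposited. The 8 input libraries were not analysed here, and columns other than position, strand and score were not used.

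With Python 3.11.15, NumPy 2.4.6 and SciPy 1.17.1, each peak was given to the gene on its strand with most exonic overlap (GENCODE M39, basic protein-coding transcripts), and its exonic part replaced its span. Peaks sharing at least 1 exonic base formed regions. Ranks are percentages of the list with a lower score. Regions in all 8 lists were compared among the 4 groups by a one-sided exact permutation test of the between-group sum of squares (105 divisions, smallest p 0.00952) with Benjamini-Hochberg adjustment over all 4735. Scripts were tested on simulated data. Gains, losses and ranks without overlap were counted, since 2 lists against 2 cannot reach 0.05. Replicates give the only error, as the lists hold no counts.

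The members, lists and tests were chosen with earlier results of these data known. Values per list are given for genes with a gained or lost region, the 8 with the highest median best rank, those with an unadjusted p at or under 0.05, those in some but not all lists, and those without a peak by name. The printed sequences were chosen after the values were seen. Alternatives left out each library, equalised or halved the lists, changed the overlap, joining, gene models, scale or transcript, or permuted within replicate numbers.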

Additional observations from a re-analysis of the deposited data

Results flagged for a closer look

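Region 1 of Syt13, in its 3′ UTR, moved in opposite directions at different times against Sham. Its mean rank was 90.6 in the Sham lists, 94.45 after 0 h of reperfusion, 85.1 after 6 h and 93.3 after 24 h. Both lists of 0 h and of 24 h were above both Sham lists, and both lists of 6 h were below them. The mean at 0 h was 9.33 rank units above that at 6 h, and the mean at 24 h was 8.22 units above it. These differences between times were not tested on their own, and with 2 lists each they could not have reached 0.05. Over all 4 groups the exact permutation p was 0.00952 before and 0.673 after Benjamini-Hochberg adjustment.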

How the results depend on the processing

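No alternative brought a region to an adjusted p under 0.05 (exact permutation test). The mean number of presynaptic genes with a peak per list was 25.4 to 26.6 without a library and 19.4 in the higher-scoring 50% of each list, and the coding share was 58.9% to 65.2% over the alternatives run on it. In all, 234 of 289 values stayed within the limit set for their kind. For p-values this was the same side of 0.05, and for counts 1.5 times the reported count. For position shares it was 1 SD over the 8 lists. Some of the 289 values could hardly move, such as gains at 0 h when a 6 h or 24 h library was left out. The total is therefore not a measure of stability. With equal numbers of peaks per list, 4 regions were gained at 6 h in place of 7. In the higher-scoring 50% of each list, 2 were gained at 6 h and 1 at 24 h, 2 were lost at 0 h and 0 at 6 h, and 2 regions ranked higher without overlap at 6 h and 2 at 24 h. On the log2 scale of score over list median, 1 region ranked lower at 0 h in place of 2. Leaving out a library leaves 1 list for its group, which by construction raises these counts: gained regions ranged from 4 to 21 at 0 h, 7 to 35 at 6 h and 4 to 19 at 24 h, lost regions from 4 to 32, 3 to 30 and 6 to 37, regions ranking higher from 3 to 8, 3 to 8 and 4 to 11, and lower from 2 to 9, 4 to 9 and 6 to 13. The 3 regions with an unadjusted p at or under 0.05 became 1 to 4 without a library, with 1 without MCAO/R-24 h replicate 1. Replicate numbers did not pair the libraries: replicate differences of 2 groups correlated at 0.034 to 0.098 over 4735 regions. With the replicate block the count was again 3, but not of the same regions. The exact permutation p was 0.0417 for Syt13 region 1 and for Pclo region 20. It was 0.0833 for Unc13c region 4, so another region was counted in its place. Depth is unknown, so an unlisted peak may be one that was not detectable.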
